A study of Mus musculus with 16 samples.

Results

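Imprinted genes are genes of which usually 1 parental copy is expressed, and 36 of them were followed here in mouse embryonic stem (ES) cells. They were taken by name from a list of known mouse imprinted genes, and all 36 are among the 24394 gene names of the RPKM tables and the 24320 of the FPKM table. By chromosomal position they fall into 17 clusters, of which 10 hold at least 2 of the genes and 7 hold 1 each. Where the gene is imprinted, the paternal copy is usually the expressed one for 21 of the genes and the maternal copy for 15. Imprinting of some of them is limited to certain tissues, and whether each is imprinted in ES cells was not tested. Paternally and maternally expressed refer below to this usual copy only. The data do not separate the parental copies: each value is the sum over both.

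All libraries came from total RNA of E14Tg2a.IV cells, labelled as strain C57BL/6 and kept without feeders in serum medium with LIF (a second line, CCE, appears in the growth protocol too). There were 16 libraries in 8 groups of 2, in 3 tables normalised separately by the authors. The first table held untreated Pml KO cells and untreated WT cells. The second held WT cells exposed for 2 h to sodium arsenite at 200 µM, which causes oxidative stress and protein damage, and untreated WT cells. The third held cells labelled Trim33 KO or WT, each given either 50 ng/ml activin A or 10 µM SB431542 for 2 h. Activin A is a TGF-β family ligand that activates SMAD2 and SMAD3, and SB431542 inhibits its type I receptors. PML builds the nuclear bodies that carry its name, and TRIM33 is a chromatin-bound protein that can join SMAD2 and SMAD3. The sources used here do not say how the knockouts were made or whether each is 1 clone, nor whether separate cultures gave the 2 libraries of each group, and the p-values below therefore rest on the spread between libraries alone, which may be technical.

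Imprinting is set in the germ line as DNA methylation of imprinting control regions, which ZFP57, ZFP445 and TRIM28 protect after fertilisation. Within a cluster the control region acts on several genes at once, through an insulator at Igf2 and H19, or through a long noncoding RNA that silences its neighbours in cis. Many of the genes regulate fetal and placental growth: paternally expressed ones often promote it and maternally expressed ones often restrain it. ES cells in culture are known to vary between lines and clones in the expression of such genes.

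The knockout labels were checked on the targeted genes first. Pml was at 32 and 33.5 FPKM in Pml KO cells and at 49.8 and 45.1 in WT, a log2 fold change of -0.52 ± 0.06. With activin A, Trim33 was at 2.53 and 2.79 RPKM in KO libraries and at 20.1 and 23.5 in WT. With SB431542 the libraries labelled KO held 18.3 and 24.6 RPKM and those labelled WT held 2.94 and 2.44, so Trim33 went against the genotype label in all 4 SB431542 libraries. The Y-linked gene Eif2s3y was also lower in Pml KO cells (1.1 and 0.753 FPKM) than in WT (16.2 and 20.6), and was near 0 in the same 4 libraries in which Trim33 was low, so a difference between cell lines and the knockout cannot be told apart. Depth, recovered from the low values, was such that 1 RPKM stood for 46.7 to 48.4 reads per kilobase of gene in libraries of the arsenite table and for 31.1 to 39.5 in those of the Trim33 table, while the Pml table gave no depth. All 8 ES cell markers looked up (Pou5f1, Nanog, Sox2, Zfp42, Esrrb, Tdgf1, Dppa5a and Utf1) were detected in every group.

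Fold changes are on the log2(value + 1) scale, which understates changes of low genes, and are given ± SE from limma, with p-values adjusted by the Benjamini-Hochberg method over all genes of a table. A gene was tested where it reached 1 in at least 2 libraries of the table, and called at an adjusted p under 0.05. That filter kept 27 of the 36 genes in the Pml table, 27 in the arsenite table and 28 in the Trim33 table. Kcnq1ot1, Usp29, Zim1, Magel2, Asb4, Airn and Rasgrf1 did not pass in any table. In bulk RNA, fewer cells that express a gene and less RNA per cell cannot be told apart.

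**Figure D1:**
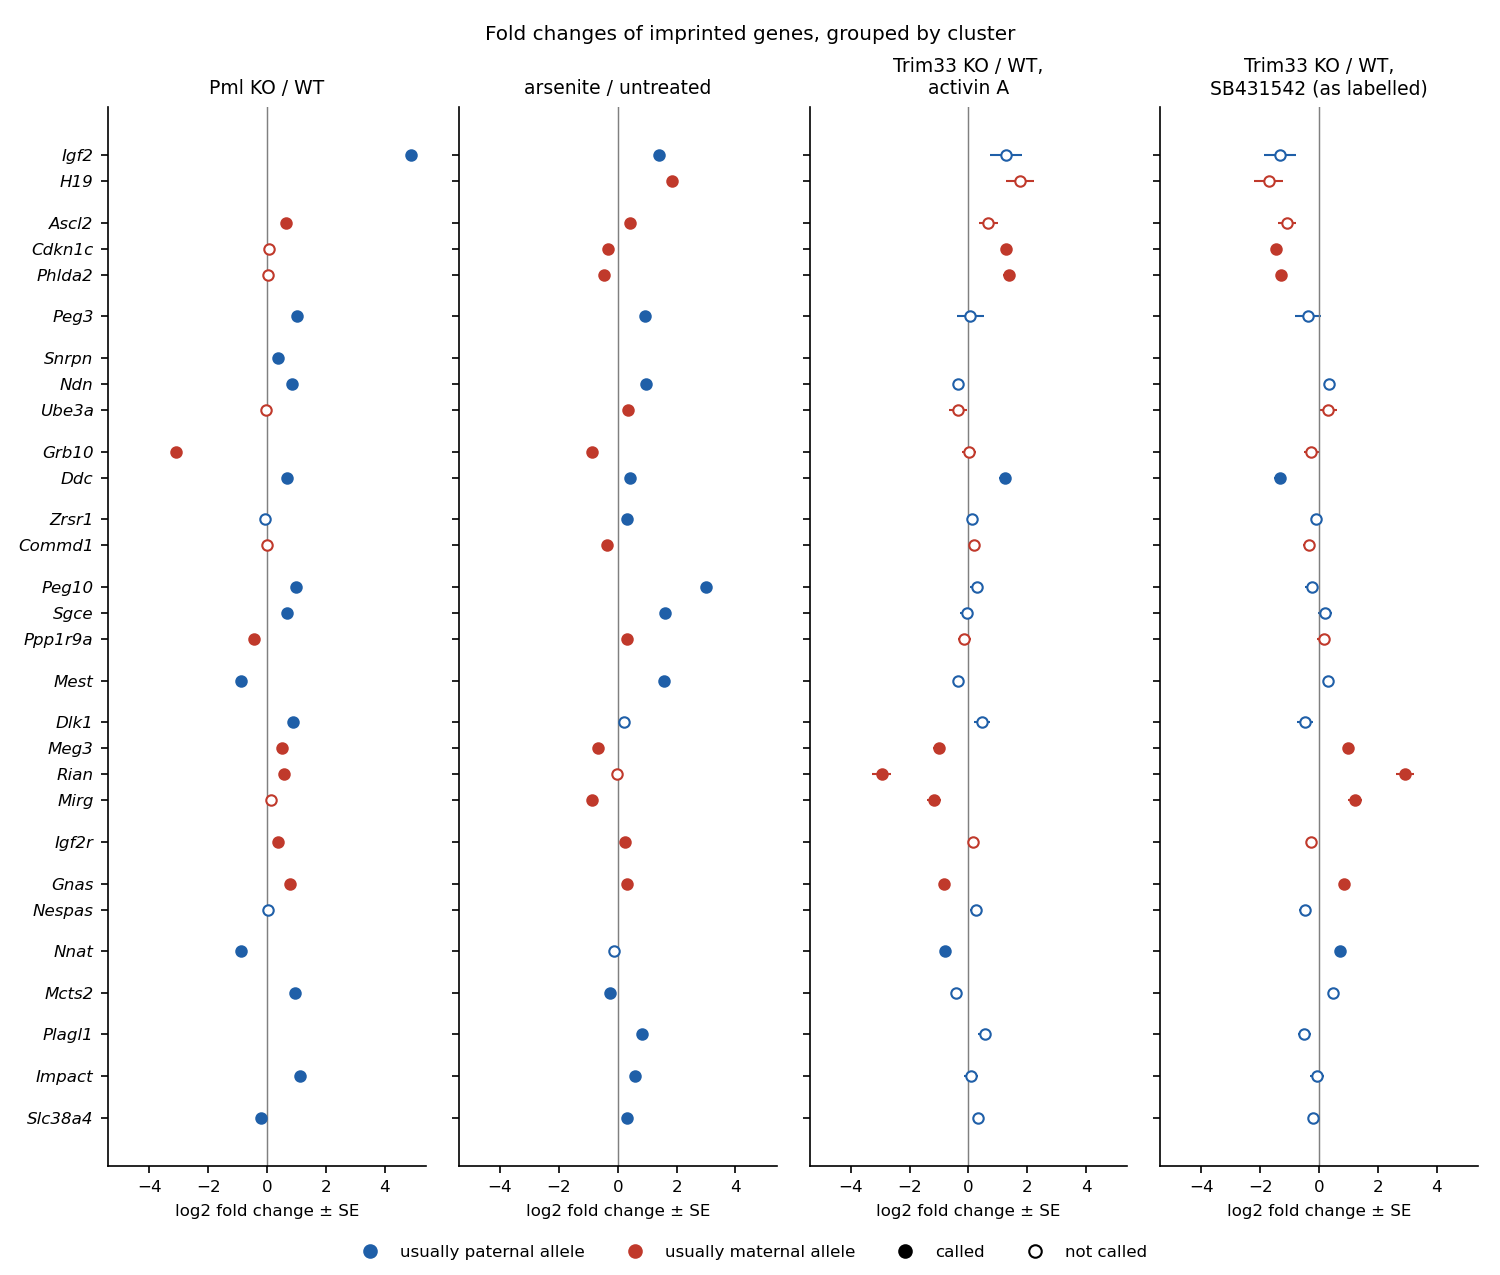
Log2 fold change ± SE (x axis, log2(value + 1) scale) of each tested imprinted gene (rows, grouped by cluster) in 4 comparisons. Filled points passed an adjusted p of 0.05 and open points did not; blue marks genes usually expressed from the paternal copy and red those from the maternal copy. Igf2 (4.90) and Grb10 (-3.11) lie farthest out in Pml KO, Peg10 (3.0) with arsenite and Rian (-2.95) in Trim33 KO with activin A.

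In Pml KO cells 15 of the 27 tested imprinted genes rose and 5 fell, against 16.6% of all 11648 tested genes called higher and 18.9% called lower (35.5% in either direction). Their median log2 fold change was 0.37, against -0.02 over all genes. Of genes usually expressed from the paternal copy 10 of 15 rose and 3 fell, and of those from the maternal copy 5 of 12 rose and 2 fell. The largest changes were a rise of the growth factor gene Igf2 and a fall of Grb10, which encodes an adaptor that dampens insulin and IGF1 receptor signalling.

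Igf2 (chr7:142650766-142666816, minus strand, GENCODE annotation of GRCm38, the build also called mm10) stood at 99.1 and 104 FPKM in Pml KO libraries, against 2.63 and 2.26 in WT. Its mean of 102 ± 3.45 FPKM in KO was 41.5-fold that of 2.45 ± 0.264 in WT (SD, n = 2 each), which is 4.90 ± 0.08 on the log2 scale (limma, adjusted p = 5.37e-09). This was the highest fold change of any gene tested in that table. The neighbouring noncoding RNA gene H19, whose start lies 88.7 kb from that of Igf2, did not pass the filter: it was at 0.616 and 0.484 FPKM in KO and at 0.62 and 0.319 in WT, groups that overlap. The Igf2 antisense gene Igf2os, which overlaps Igf2 at its exons, was also called higher (1.35 FPKM in KO and 0.0905 in WT, 1.11 ± 0.12, limma adjusted p = 0.000236). It passed the filter through the KO libraries alone, so its call adds nothing to that of Igf2. Of the 50-base words of Igf2, 61.2% also occur in the read-through gene Gm49394, and the sources used here do not give whether counting used strand, so reads of these overlapping genes cannot be assigned with certainty.

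Grb10 (chr11:11930508-12038683, minus strand) stood at 4.16 and 4.96 FPKM in Pml KO libraries and at 48.2 and 45.4 in WT. The groups are far apart: 4.56 ± 0.569 FPKM in KO and 46.8 ± 1.94 in WT (SD, n = 2 each), with a difference of -3.11 ± 0.09 on the log2 scale (limma, adjusted p = 8.67e-08). Ddc, which encodes the decarboxylase that makes dopamine and serotonin and whose start lies 140.5 kb from that of Grb10, moved the other way. It was at 11.1 and 10.3 FPKM in KO and at 6.2 and 6.45 in WT (0.68 ± 0.08, limma adjusted p = 0.00042). Neither of the 2 tested non-imprinted genes within 500 kb of the pair was called by limma. The imprinted gene Cobl, whose start lies 426.3 kb from that of Grb10, was called lower (-0.34).

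**Figure D2:**
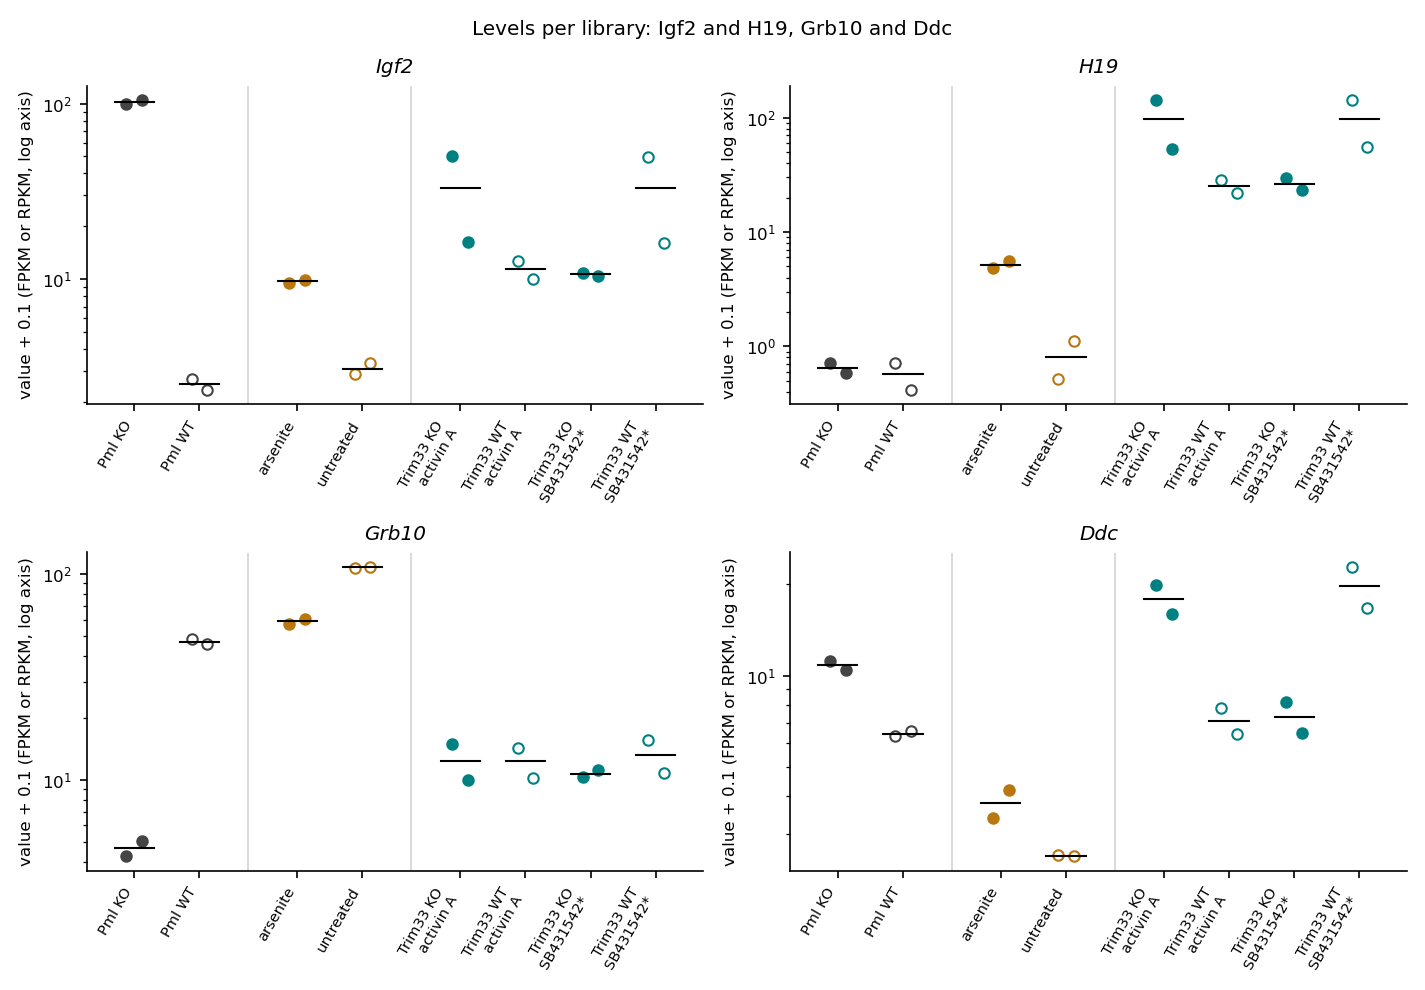
Levels of Igf2, H19, Grb10 and Ddc in every library (y axis, deposited value + 0.1 in FPKM for the Pml table and RPKM for the others, log axis); points are libraries, bars are group means, vertical lines separate the tables and an asterisk marks groups whose Trim33 level goes against the label. Igf2 is near 100 in Pml KO and under 3 in WT, whereas Grb10 is under 5 in Pml KO and over 45 in WT.

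Igf2 and Grb10 mark the extremes among the tested imprinted genes in Pml KO, and their promoter windows are shown for that reason. They come from RefSeq (GRCm38.p6, 250 bases before to 50 after a start, given 5′ to 3′ on the gene's strand), for Igf2 at chr7:142658755-142659054 (minus strand) and for Grb10 at chr11:12037371-12037670 (minus strand). Capitals mark TGCCGC or its reverse complement GCGGCA, the core motif of ZFP57; other letters are lower case.
Igf2: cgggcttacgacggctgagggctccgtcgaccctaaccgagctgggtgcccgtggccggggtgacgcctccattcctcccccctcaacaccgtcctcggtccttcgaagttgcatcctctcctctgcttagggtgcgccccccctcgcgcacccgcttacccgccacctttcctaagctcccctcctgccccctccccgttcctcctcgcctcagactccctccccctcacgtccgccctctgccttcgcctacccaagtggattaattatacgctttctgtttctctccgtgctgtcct
Grb10: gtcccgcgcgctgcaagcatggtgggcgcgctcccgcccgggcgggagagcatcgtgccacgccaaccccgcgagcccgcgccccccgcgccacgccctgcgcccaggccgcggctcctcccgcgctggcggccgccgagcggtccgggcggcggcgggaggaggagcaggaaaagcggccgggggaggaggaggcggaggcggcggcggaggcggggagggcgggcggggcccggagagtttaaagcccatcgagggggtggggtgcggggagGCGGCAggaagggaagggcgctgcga
The Grb10 window holds 45 CG dinucleotides, more than 98.1% of all 32851 mouse promoter windows of the table, and 1 motif match. The Igf2 window holds 24 CG dinucleotides, more than 80.0% of windows, and no match. For each gene the window with the most CG dinucleotides is shown, here and below. Both genes have further starts. Another Igf2 window holds 14 CG dinucleotides and 1 match, and the other Grb10 window holds 9 and no match. The difference in matches thus depends on the window chosen. The median window of the table holds 7 CG dinucleotides.

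On chromosome 12, 2 of the 3 maternally expressed noncoding RNA genes of the Dlk1 cluster, Meg3 and Rian, rose in Pml KO, and the paternally expressed Dlk1 was also called higher. Dlk1, a non-canonical Notch ligand, was at 2.39 and 2.31 FPKM in KO and at 0.745 and 0.927 in WT, having passed the filter through the KO libraries alone (0.87 ± 0.11, limma adjusted p = 0.000643). Meg3, a long noncoding RNA, was at 44.2 and 42.1 FPKM in KO and at 31.6 and 28.4 in WT (0.51 ± 0.07). Rian, which hosts small nucleolar RNAs, was at 56.3 and 54.8 FPKM in KO and at 35.4 and 38.9 in WT (0.57 ± 0.06). Mirg, which hosts microRNAs, averaged 11.1 FPKM in KO and 9.86 in WT and was not called (0.15 ± 0.09).

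In the Peg10, Peg3 and Snrpn clusters of chromosomes 6 and 7, the paternally expressed genes Peg10, Sgce, Peg3, Ndn and Snrpn rose in Pml KO, whereas Mest, also paternally expressed and on chromosome 6, did not. Peg10, a retrotransposon-derived gene needed in the placenta, was at 115 and 124 FPKM in Pml KO and at 58.2 and 62.6 in WT (0.97 ± 0.06). Sgce, the epsilon-sarcoglycan gene that starts 99 bases from Peg10 on the other strand, averaged 3.09 FPKM in KO and 1.52 in WT (0.69 ± 0.12). Their neighbour Ppp1r9a, which encodes the actin-binding neurabin, fell (2.4 FPKM in KO and 3.61 in WT, -0.44 ± 0.10). The zinc-finger gene Peg3 averaged 14.6 FPKM in KO and 6.76 in WT (1.01 ± 0.09), the MAGE-family gene Ndn 11.9 in KO and 6.21 in WT (0.84 ± 0.08), and the spliceosomal protein gene Snrpn 123 in KO and 96.2 in WT (0.36 ± 0.05).

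The other called genes moved in both directions in Pml KO. Impact, which encodes an inhibitor of the kinase GCN2, averaged 77.3 FPKM in KO and 35.4 in WT (1.11 ± 0.07), and the retrogene Mcts2 averaged 57.1 in KO and 28.9 in WT (0.96 ± 0.07). Mest, which encodes an α/β-hydrolase fold protein, fell to 0.358 and 0.211 FPKM in KO, against 1.32 and 1.49 in WT, through which alone it passed the filter (-0.90 ± 0.13, limma adjusted p = 0.000906). Nnat, an endoplasmic reticulum proteolipid gene, averaged 1.0 FPKM in KO and 2.7 in WT (-0.89 ± 0.13), and the amino acid transporter gene Slc38a4 68 in KO and 79.4 in WT (-0.22 ± 0.05). Gnas, which encodes the stimulatory G protein subunit, averaged 195 FPKM in KO and 113 in WT (0.78 ± 0.04), Igf2r, the receptor that clears IGF2, 13.4 in KO and 10.2 in WT (0.37 ± 0.08), and the trophoblast factor gene Ascl2 3.82 in KO and 2.13 in WT (0.64 ± 0.17).

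The remaining 7 tested genes were not called in Pml KO. Besides Mirg these were the cell-cycle inhibitor gene Cdkn1c (28.6 FPKM in KO and 27.3 in WT), Phlda2, which restrains placental growth (129 and 125), the ubiquitin ligase gene Ube3a (18.3 and 18.6), the splicing-factor retrogene Zrsr1 (4.42 and 4.71), Commd1, in whose intron Zrsr1 lies (112 and 113), and Nespas, the antisense RNA of Gnas (1.25 and 1.19). Leaving out WT replicate 2 ended the call of Ascl2 (0.39, limma adjusted p = 0.067), and leaving out KO replicate 2 that of Slc38a4 (-0.21, limma adjusted p = 0.0611). Markers of other cell types moved with the genotype: the summed level of 8 trophectoderm markers was 718 to 731 FPKM in KO and 65.8 to 71.3 in WT, with all 7 tested ones called higher and Elf5 under 0.11 in every library. That of 4 smooth muscle markers was 303 to 323 FPKM in KO and 10.8 to 12.8 in WT, with 3 of 3 tested higher and Myh11 under 0.09. Two-cell-like markers summed to 14.5 to 15.4 FPKM in KO and 3.44 to 3.51 in WT (4 of 4 tested higher). Fibroblast markers summed to 21 to 22.5 in KO and 8.49 to 8.8 in WT (4 of 5 tested higher and 1 lower, with Postn and Lum at 0 in WT). Primitive endoderm markers summed to 3.34 to 3.36 in KO and 7.56 to 7.99 in WT (2 of 3 tested lower, with Afp at 0 in KO), and neural ones to 99.4 to 100 in KO and 105 to 107 in WT (1 of 4 tested higher and 3 lower). The part of these cell types in the imprinted gene changes was not tested.

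With arsenite, 17 of the 27 tested imprinted genes rose and 7 fell, where 40.7% of all 12136 tested genes were called higher and 27% lower (67.7% in either direction). Their median log2 fold change was 0.33, against 0.08 over all genes. Among genes usually expressed from the paternal copy 11 of 14 rose and 1 fell, and among those from the maternal copy 6 of 13 rose and 6 fell. Rescaling the table by TMM (trimmed mean of M-values) moved the median of all genes to -0.07 and the share of higher calls among all calls to 40.7%, against 60.1% as deposited, and gave 14 higher and 8 lower imprinted genes. Small changes of this comparison are therefore read relative to that shift.

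Peg10 changed most among the imprinted genes with arsenite. The gene (chr6:4747306-4760517, plus strand) stood at 299 and 320 RPKM with arsenite, against 36.9 and 38.5 in untreated cells, an 8.21-fold difference of means (3.0 ± 0.05, limma adjusted p = 9.2e-08). Sgce stood at 22 and 20.8 RPKM with arsenite and at 6.61 and 6.27 in untreated cells (1.59 ± 0.06, limma adjusted p = 1.12e-06). In both genes the 2 libraries of a group lay close together and the groups were far apart. Ppp1r9a changed little (5.74 RPKM with arsenite and 4.36 in untreated cells, 0.33 ± 0.08), and its call was lost under TMM (0.19). Of the neighbours, the imprinted paraoxonase gene Pon3 (3.8 RPKM with arsenite and 0.943 in untreated cells, 1.30 ± 0.09) and Pdk4, a pyruvate dehydrogenase kinase gene (5.31 and 2.72, 0.76 ± 0.11), rose as well.

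**Figure D3:**
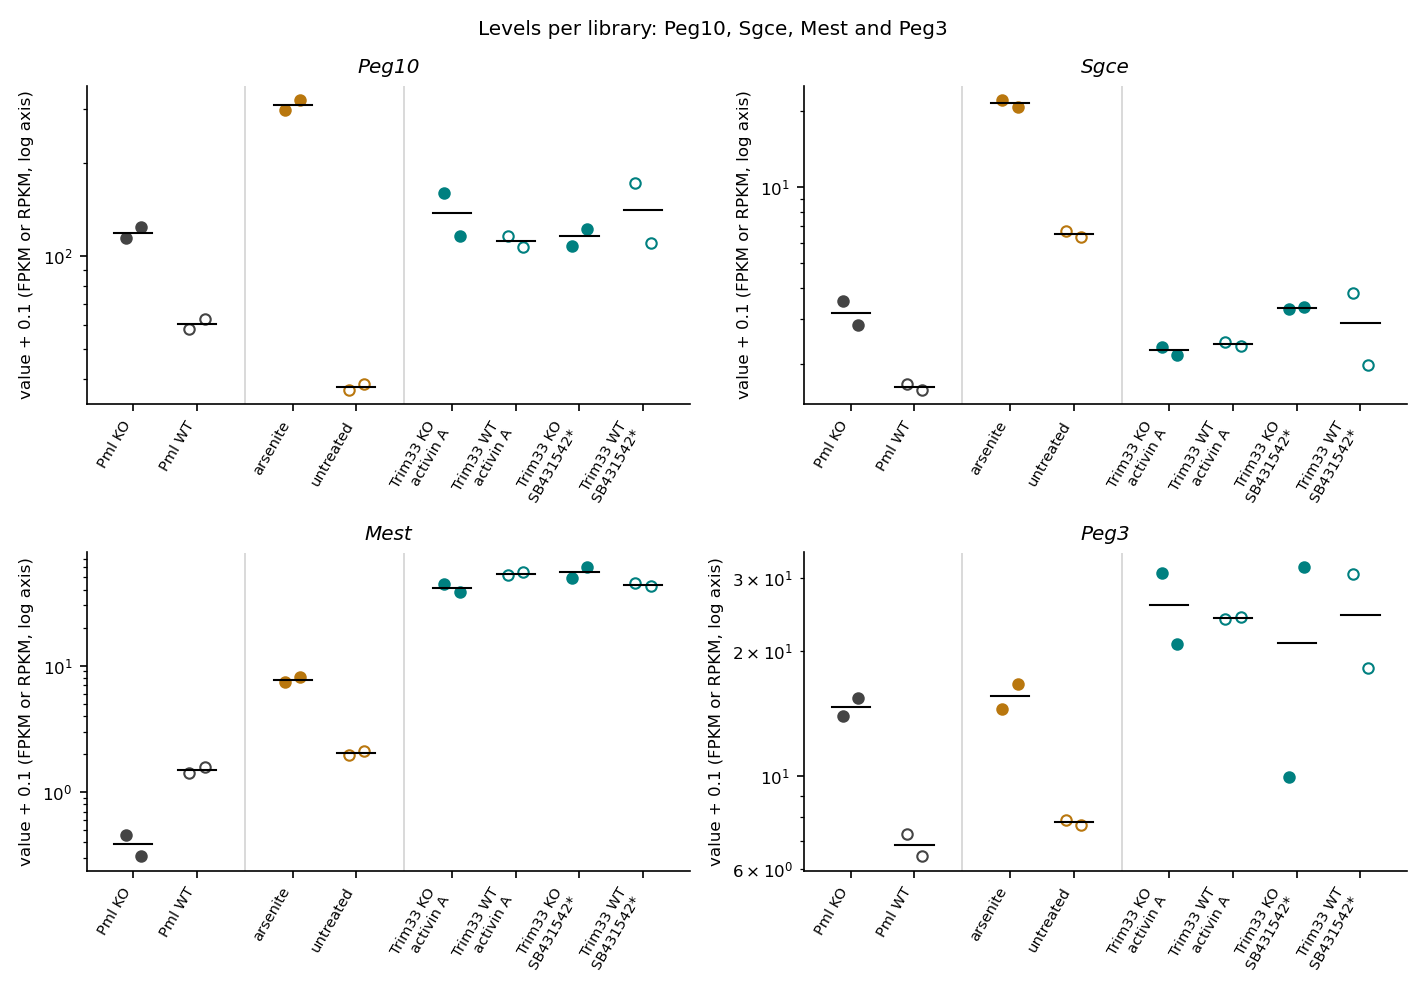
Levels of Peg10, Sgce, Mest and Peg3 in every library (y axis, deposited value + 0.1 in FPKM or RPKM, log axis); points are libraries, bars are group means, vertical lines separate the tables and an asterisk marks groups whose Trim33 level goes against the label. Peg10 is at 299 and 320 with arsenite and at 36.9 and 38.5 in untreated cells, and Mest is lower in Pml KO than in WT but higher with arsenite than in untreated cells.

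Mest rose with arsenite, to 7.32 and 7.98 RPKM against 1.88 and 2 in untreated cells (1.56 ± 0.08, limma adjusted p = 4.65e-06). Plagl1, a zinc-finger factor gene, was at 1.41 and 1.53 RPKM with arsenite and at 0.376 and 0.389 in untreated cells, and passed the filter through the arsenite libraries alone (0.84 ± 0.10). Peg3 averaged 15.5 RPKM with arsenite and 7.66 in untreated cells (0.93 ± 0.08), Ndn 14.3 with arsenite and 6.85 in untreated cells (0.96 ± 0.06), and Impact 98.9 with arsenite and 66 in untreated cells (0.58 ± 0.06). These 5 genes kept their calls under TMM and under quantile normalization. The Mest promoter is shown because this gene rose with arsenite and its window holds 2 ZFP57 motif matches, the most of the windows printed here. It lies at chr6:30737800-30738099 (plus strand, GRCm38.p6, RefSeq), with capitals as above.
Mest: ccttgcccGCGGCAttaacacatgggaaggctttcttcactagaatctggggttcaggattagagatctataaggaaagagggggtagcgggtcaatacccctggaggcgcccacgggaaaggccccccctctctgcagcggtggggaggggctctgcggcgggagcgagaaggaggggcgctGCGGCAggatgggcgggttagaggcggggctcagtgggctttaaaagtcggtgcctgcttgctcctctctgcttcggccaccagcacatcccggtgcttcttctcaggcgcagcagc
This window has 17 CG dinucleotides, while another Mest window holds 8 and no match. TGCCGC in either orientation occurs in 11 of 49 windows of the imprinted genes (22.4%) and in 11.6% of all windows of the table. Of the 36 genes 30 have a window there. The motif itself holds a CG, and windows of the imprinted genes hold a median of 11 CG dinucleotides, against 7 over all windows. Mest enters the 11 through overlapping windows that start at 30737800 and 30737803. Nothing is therefore read from the difference in shares. Of the other motifs searched on both strands, the YY1 core CCATNTT occurs in 12.2% of the imprinted genes' windows and 16.1% of all windows, and the antioxidant response element core TGACNNNGC in 8.16% and 12.4%. A match is a run of letters, not evidence of binding.

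At the Igf2 cluster both genes rose with arsenite although their usual copies differ. Igf2 was at 9.48 and 9.86 RPKM with arsenite and at 2.8 and 3.23 in untreated cells (1.41 ± 0.08, limma adjusted p = 6.96e-06). H19 was at 4.75 and 5.43 RPKM with arsenite and at 0.414 and 1.01 in untreated cells (1.85 ± 0.16, limma adjusted p = 5.22e-05). Further along the chromosome Ascl2 averaged 3.22 RPKM with arsenite and 2.12 in untreated cells (0.43 ± 0.09), whereas Cdkn1c averaged 17.7 with arsenite and 22.5 in untreated cells (-0.32 ± 0.08) and Phlda2 48.5 with arsenite and 67.1 in untreated cells (-0.46 ± 0.07). The non-imprinted neighbour Ctsd, which encodes a lysosomal protease, rose as well (528 RPKM with arsenite and 228 in untreated cells, 1.21 ± 0.04).

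Maternally expressed genes made up 6 of the 7 falls with arsenite. Grb10 fell to 57.1 and 60.2 RPKM with arsenite, against 107 and 108 in untreated cells (-0.86 ± 0.04, limma adjusted p = 2.28e-06). Meg3 fell to 10.8 and 10.8 RPKM with arsenite, against 15.6 and 20.4 in untreated cells (-0.68 ± 0.11), and Mirg to 8.49 and 7.15 with arsenite, against 13.7 and 16.5 in untreated cells (-0.87 ± 0.10). Rian, which lies between them, was at 72.2 and 73.1 RPKM with arsenite and at 69.7 and 79.9 in untreated cells, groups that overlap (-0.04 ± 0.06). It became a call of -0.21 under TMM and one of -0.14 without untreated replicate 1 (limma adjusted p = 0.0415). Commd1 averaged 52 RPKM with arsenite and 66.6 in untreated cells (-0.35 ± 0.04). The 1 paternally expressed gene that fell was Mcts2 (16.9 RPKM with arsenite and 20.5 in untreated cells, -0.27 ± 0.09), a call that was lost without untreated replicate 2 (-0.23, limma adjusted p = 0.0788) and without arsenite replicate 2 (-0.12, 0.164).

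Small rises with arsenite were found in Slc38a4 (86.5 RPKM with arsenite and 70.1 in untreated cells), Gnas (55.4 and 43.8), Igf2r (35.6 and 29.9), Ube3a (15 and 11.6), Zrsr1 (7.86 and 6.2) and Ddc (3.69 and 2.45), with log2 fold changes of 0.24 to 0.43. TMM ended the calls of Zrsr1 (0.15) and Igf2r (0.08), and quantile normalization those of Zrsr1 (0.15), Ddc (0.23), Ppp1r9a (0.16) and Ascl2 (0.23). Leaving out arsenite replicate 2 ended the calls of Ddc, Zrsr1 and Ppp1r9a (limma adjusted p = 0.0681, 0.0666 and 0.0677; 0.31, 0.23 and 0.27). Dlk1 (1.25 RPKM with arsenite and 0.928 in untreated cells) and Nnat (2.46 and 2.78) were not called. Nespas stayed under the filter, and Snrpn and the gene Snurf that overlaps it were listed at 0 in all 4 libraries of this table, although Snrpn exceeded 90 FPKM throughout the Pml table. ES cell markers were lower with arsenite (sums of 2720 to 2840 RPKM, against 5180 to 5250 in untreated cells, 7 of 8 called lower), and trophectoderm markers were higher (161 to 165, against 94.6 to 96 in untreated cells, 5 of 6 tested called higher and 1 lower, with Elf5 at 0 with arsenite). Smooth muscle markers summed to 51.5 to 54.4 RPKM with arsenite and 11.8 to 12.5 in untreated cells (3 of 3 tested higher), and primitive endoderm ones to 14.7 to 15.8 with arsenite and 7.94 to 8.28 in untreated cells (3 of 4 higher, with Afp at 0 in both). Neural markers summed to 39.7 to 43.8 with arsenite and 53.3 to 54.5 in untreated cells (2 higher and 3 lower), and fibroblast ones to 5.32 to 6.64 with arsenite and 6.48 to 6.81 in untreated cells (1 higher and 1 lower of 2 tested). Their part in these changes was not tested.

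In Trim33 KO cells given activin A, 3 of the 28 tested imprinted genes rose and 5 fell, where 6.61% of all 11914 tested genes were called higher and 2.82% lower (9.43% in either direction). Their median log2 fold change was 0.10, against 0.01 over all genes. Under TMM the share of higher calls among all calls was 52.4%, against 70.1% as deposited, and the imprinted genes again numbered 3 higher and 5 lower. Maternally expressed genes held 6 of the 8 calls: 2 of 13 rose and 4 fell, while 1 of 15 paternally expressed genes rose and 1 fell. The largest change was in the maternal noncoding RNA genes of the Dlk1 cluster on chromosome 12, which all fell.

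Rian (chr12:109603940-109661716, plus strand) was at 0.596 and 2.02 RPKM in Trim33 KO libraries with activin A and at 17.5 and 14.6 in WT (-2.95 ± 0.31, limma adjusted p = 0.00149). Meg3 was at 0.0712 and 0.196 RPKM in KO and at 1.64 and 0.982 in WT (-1.01 ± 0.19, limma adjusted p = 0.0169). Mirg was at 0.0444 and 0.239 RPKM in KO and at 1.95 and 1.21 in WT (-1.17 ± 0.24, limma adjusted p = 0.0216). In each of the 3 genes both KO libraries lay below both WT libraries, and the means in WT were 12.3-fold, 9.81-fold and 11.1-fold those in KO for Rian, Meg3 and Mirg. Meg3 and Mirg passed the filter through the libraries where they were high. Dlk1 was at 1.9 and 0.989 RPKM in KO and at 0.87 and 0.639 in WT, higher in both KO libraries but not called (0.46 ± 0.28, limma adjusted p = 0.34). It passed the filter only through KO replicate 1 with activin A and replicate 1 labelled WT with SB431542 (2.17 RPKM).

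**Figure D4:**
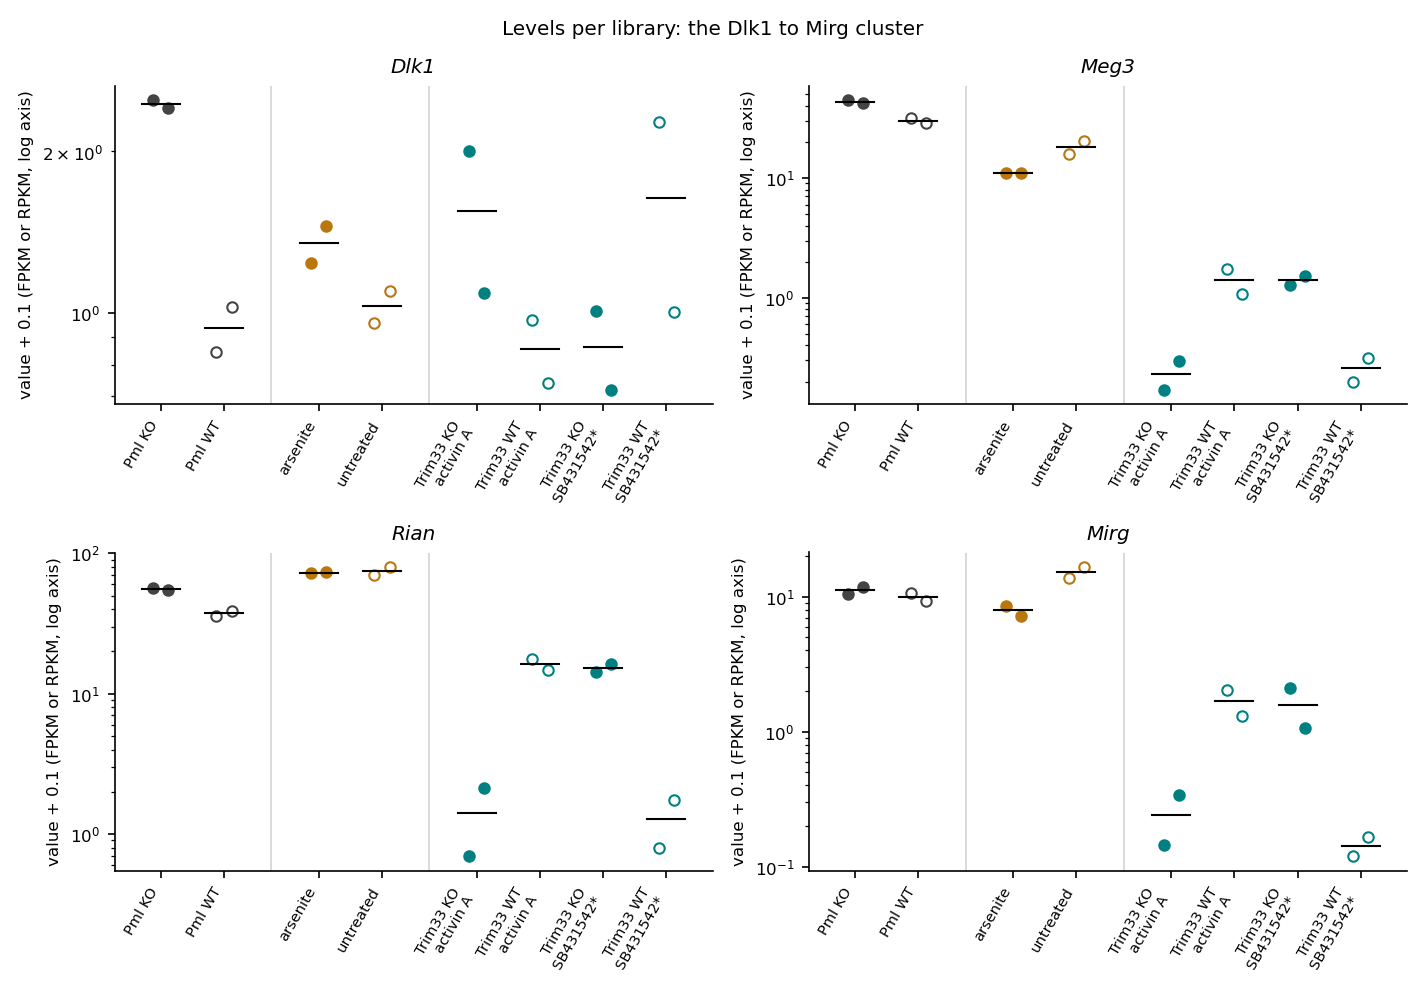
Levels of Dlk1, Meg3, Rian and Mirg in every library (y axis, deposited value + 0.1 in FPKM or RPKM, log axis); points are libraries, bars are group means, vertical lines separate the tables and an asterisk marks groups whose Trim33 level goes against the label. In the Trim33 table the libraries labelled KO with activin A and WT with SB431542 hold 0.596 to 2.02 RPKM of Rian, and the other 4 hold 14.1 to 17.5.

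Promoter windows of 2 genes of this cluster are shown because the genes moved together and their windows differ in composition. The Meg3 window lies at chr12:109540746-109541045 and that of Rian at chr12:109603695-109603994 (both plus strand, GRCm38.p6, RefSeq), and the annotated starts are 62.9 kb apart; capitals are as above.
Meg3: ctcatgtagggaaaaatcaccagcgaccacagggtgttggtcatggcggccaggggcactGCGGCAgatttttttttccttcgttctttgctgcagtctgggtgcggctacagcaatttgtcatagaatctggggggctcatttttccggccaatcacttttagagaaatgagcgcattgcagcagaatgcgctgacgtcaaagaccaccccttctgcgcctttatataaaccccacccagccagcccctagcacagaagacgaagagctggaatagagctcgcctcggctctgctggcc
Rian: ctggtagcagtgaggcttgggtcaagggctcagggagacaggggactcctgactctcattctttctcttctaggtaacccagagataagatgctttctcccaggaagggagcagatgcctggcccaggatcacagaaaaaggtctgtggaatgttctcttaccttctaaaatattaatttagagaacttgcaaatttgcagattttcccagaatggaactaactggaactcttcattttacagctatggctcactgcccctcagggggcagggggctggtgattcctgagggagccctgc
The Meg3 window holds 13 CG dinucleotides and 1 ZFP57 motif match, while another Meg3 window holds 1 CG dinucleotide and no match. The Rian window holds 0 CG dinucleotides and no match.

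At the distal end of chromosome 7 the maternally expressed growth-restraining genes rose in Trim33 KO with activin A. Cdkn1c was at 20.4 and 22.4 RPKM in KO and at 7.2 and 9.37 in WT (1.28 ± 0.15, limma adjusted p = 0.00235). Phlda2, whose start lies 42.1 kb from that of Cdkn1c, was at 100.0 and 127 RPKM in KO and at 39.9 and 46.7 in WT (1.37 ± 0.18, limma adjusted p = 0.00352). Both genes kept their calls when any 1 library was left out. Ascl2 was at 3.54 and 1.96 RPKM in KO and at 1.98 and 0.775 in WT, groups that overlap (0.67 ± 0.32, not called).

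Igf2 and H19, on the same chromosome arm, were higher in both Trim33 KO libraries but varied widely between them. Igf2 was at 49.9 and 16.3 RPKM in KO with activin A and at 12.6 and 9.96 in WT (1.28 ± 0.55, limma adjusted p = 0.18). H19 was at 141 and 52.6 RPKM in KO and at 28.4 and 21.8 in WT (1.75 ± 0.49, limma adjusted p = 0.0571). Neither was called, and H19 became a call without KO replicate 2 (2.46, limma adjusted p = 0.0268) and without either library labelled WT with SB431542 (1.75, 0.029 and 0.0292). Without KO replicate 1 the differences were 1.05 for H19 and 0.50 for Igf2, which KO replicate 1 thus moved by over 1.5 times; over all 8 such fits H19 ranged from 1.05 to 2.46 and Igf2 from 0.50 to 2.06. Fibroblast markers spread in the same groups, with sums of 14.8 to 43.2 RPKM in KO and 7.14 to 7.8 in WT, 1 of 4 tested markers called higher and none of the 9 at 0 in both libraries of a group. Markers of the two-cell-like state were also higher in KO (6.61 to 17.1 RPKM, 5 of 6 tested called higher) than in WT (0 to 0.114, with 4 of the 6 at 0). Their sums did not exceed 0.124 RPKM in any library with high Trim33. All 6 thus passed the filter through libraries with low Trim33 alone, and nothing is read from the number called. Neural markers summed to 135 to 145 RPKM in KO and 76.8 to 77 in WT (1 of 5 tested called higher and 2 lower). Of the 8 ES cell markers 1 was called higher. No tested trophectoderm, smooth muscle or primitive endoderm marker was called. The part of these markers in the imprinted gene values was not tested.

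**Figure D5:**
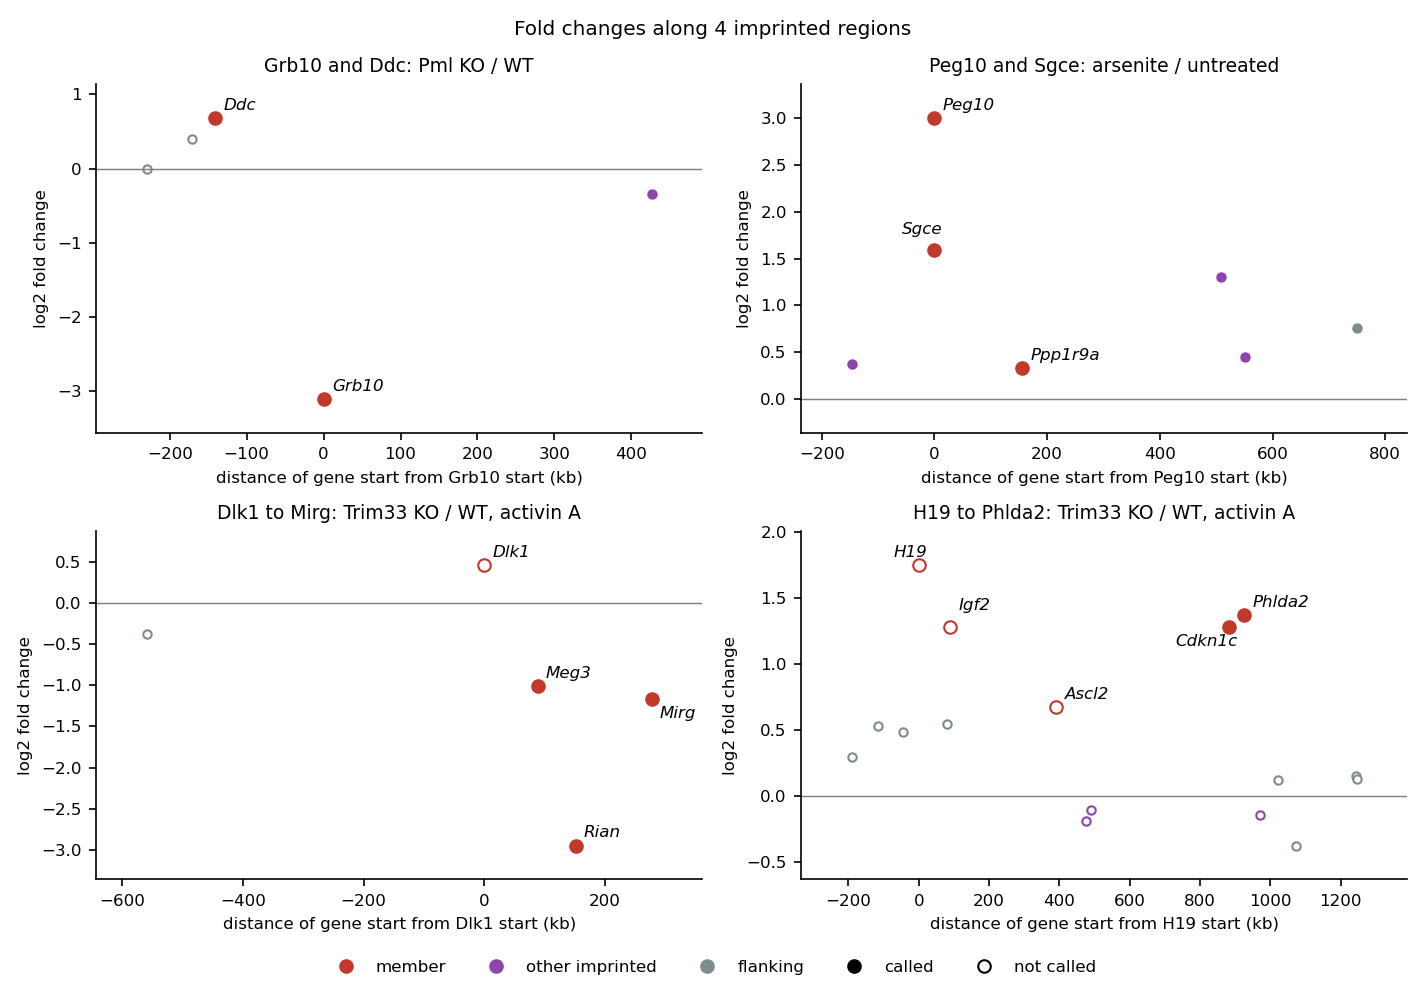
Log2 fold change (y axis) against distance of each gene's start from that of a named gene (x axis, kb) in 4 imprinted regions; red points are the imprinted genes followed here, purple ones other imprinted genes, grey ones other genes within 500 kb, filled where called. In Trim33 KO with activin A, Meg3 (-1.01), Rian (-2.95) and Mirg (-1.17) lie below 0 beside an uncalled Dlk1 (0.46), and Cdkn1c (1.28) and Phlda2 (1.37) lie above 0.

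The other called genes in Trim33 KO with activin A were Ddc, Gnas and Nnat. Ddc was at 19.8 and 15.8 RPKM in KO and at 7.69 and 6.32 in WT (1.23 ± 0.20, limma adjusted p = 0.00908), while its neighbour Grb10 overlapped between the groups (14.8 and 9.83 RPKM in KO and 14.2 and 10.1 in WT, 0.01 ± 0.24). Gnas was at 17.9 and 16 RPKM in KO and at 31 and 31 in WT (-0.84 ± 0.14, limma adjusted p = 0.00933), and its antisense partner Nespas averaged 1.95 in KO and 1.45 in WT (0.26 ± 0.20, not called). Nnat was at 33.9 and 29.3 RPKM in KO and at 47.5 and 63.3 in WT (-0.78 ± 0.15, limma adjusted p = 0.0179).

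Several of these calls were lost when 1 library was left out, while the fold changes kept their direction. Without KO replicate 1, KO replicate 2, WT replicate 1 or WT replicate 2 with activin A, the number of genes called lower was 2, 1, 2 and 2 in place of 5. Mirg lost its call in each of these 4 (-1.04, -1.29, -0.96 and -1.37; limma adjusted p = 0.128, 0.0608, 0.133 and 0.0686). Meg3 lost it without KO replicate 1, KO replicate 2 or WT replicate 1 (-0.94, -1.09 and -0.81; limma adjusted p = 0.109, 0.0591 and 0.11). Gnas lost it without KO replicate 2, WT replicate 1 or WT replicate 2 (-0.76, -0.84 and -0.83; limma adjusted p = 0.0625, 0.0664 and 0.08). Nnat lost it without KO replicate 1, KO replicate 2 or WT replicate 2 (-0.88, -0.68 and -0.58; limma adjusted p = 0.0648, 0.103 and 0.142), and Ddc without KO replicate 1 or WT replicate 2 (1.07 and 1.10; 0.0733 and 0.0834). Rian, Cdkn1c and Phlda2 kept theirs in all 8 such fits.

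A further 14 tested genes were not called in Trim33 KO with activin A. Among those expressed above 40 RPKM were Peg10 (138 RPKM in KO and 112 in WT), Commd1 (85.6 and 74.1), Slc38a4 (75.2 and 60.5), Impact (51.1 and 48.3) and Mest (41.2 and 53.2). The lower ones were Mcts2 (30.2 RPKM in KO and 41.2 in WT), Peg3 (25.7 and 23.9), Ube3a (12.4 and 16.2), Zrsr1 (9.45 and 8.67), Ndn (8.43 and 10.9), Igf2r (7.91 and 6.95), Plagl1 (5.67 and 3.58), Sgce (2.16 and 2.3) and Ppp1r9a (1.76 and 2.04). Of these, Mcts2 became a call of -0.43 without either library labelled KO with SB431542 (limma adjusted p = 0.0358 and 0.0357).

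In the SB431542 libraries, grouped as labelled, 5 of the 28 tested imprinted genes were higher in the libraries labelled Trim33 KO and 3 were lower, where 3.01% of all tested genes were called higher and 6.55% lower (9.56% in either direction). Their median log2 fold change was -0.23, against -0.01 over all genes. Under TMM the share of higher calls among all calls was 45.9%, against 31.5% as deposited, with 5 higher and 3 lower imprinted genes as before. Trim33 itself was higher in the libraries labelled KO, so the directions as labelled are the reverse of those with activin A, while beside the level of Trim33 they run the same way. Rian was at 0.596 to 2.02 RPKM in the 4 libraries of both treatments with Trim33 at 2.44 to 2.94, and at 14.1 to 17.5 in the 4 with Trim33 at 18.3 to 24.6. Rian was at 14.1 and 16.3 RPKM in the libraries labelled KO and at 0.693 and 1.66 in those labelled WT (2.93 ± 0.31, limma adjusted p = 0.00146). Meg3 (1.31 RPKM in libraries labelled KO and 0.158 in those labelled WT, 0.99 ± 0.19), Mirg (1.48 and 0.0428, 1.22 ± 0.24), Gnas (31.5 and 17.2, 0.85 ± 0.14) and Nnat (57.7 and 34.6, 0.72 ± 0.15) were higher in the libraries labelled KO as well.

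Lower in the libraries labelled KO with SB431542 were Cdkn1c (6.44 and 6.49 RPKM, against 19.3 and 19.6 in those labelled WT), Phlda2 (51.5 and 38, against 105 and 115) and Ddc (8.06 and 6.35, against 22.7 and 16.6). Their log2 fold changes were -1.45 ± 0.15, -1.29 ± 0.18 and -1.33 ± 0.20 (limma, adjusted p = 0.00128, 0.00427 and 0.00652). Igf2 was at 10.8 and 10.4 RPKM in the libraries labelled KO and at 49.8 and 16.1 in those labelled WT (-1.34 ± 0.55, not called), and H19 at 29.6 and 23.2, against 141 and 55.4 (-1.71 ± 0.49, limma adjusted p = 0.0612). H19 became a call without either KO library with activin A (-1.71, limma adjusted p = 0.0267 and 0.0266) or without replicate 2 labelled WT with SB431542 (-2.38, 0.0322). Without replicate 1 labelled WT with SB431542 the differences were -1.05 for H19 and -0.56 for Igf2. Without KO replicate 1 or either WT replicate as labelled, the number called higher was 3, 2 and 2. Mirg (0.91, 1.19 and 1.25; limma adjusted p = 0.0642, 0.0877 and 0.063) and Nnat (0.66, 0.76 and 0.68; 0.0706, 0.0847 and 0.093) lost their calls in all 3. Meg3 lost its call without either WT replicate as labelled (0.92 and 1.07; limma adjusted p = 0.095 and 0.0532). Without KO replicate 2 as labelled, Meg3 (0.91, limma adjusted p = 0.0729) and Nnat (0.79, 0.0562) lost them and Mcts2 gained one (0.68, 0.0303).

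The difference between the knockout effects in the 2 treatments, tested as the KO minus WT effect with activin A less that with SB431542, passed for 14 of the 28 tested imprinted genes (7 positive and 7 negative), where 26.3% of all genes passed (16.1% positive and 10.1% negative). It was largest for Rian (-5.88 ± 0.44, limma adjusted p = 9.30e-05), H19 (3.47 ± 0.69), Cdkn1c (2.73 ± 0.21) and Phlda2 (2.66 ± 0.25). Under TMM the share of positive differences was 46%, against 61.5% as deposited, the median of all genes moved to -0.11, against 0.03, and 6 positive and 8 negative imprinted genes passed. The difference rests on the genotype labels that Trim33 contradicts in the SB431542 libraries. Summed levels of 4 Y-linked genes went with Trim33 in both treatments. The sums were 56 to 59.7 RPKM in libraries labelled KO with SB431542 and 59 to 59.8 in WT with activin A. In libraries labelled WT with SB431542 they were 0.122 to 0.143, and in KO with activin A 0 to 0.0651. Whether a treatment effect or an exchange of labels lies behind the difference was not tested.

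The mean effect of activin A against SB431542 over both genotype labels does not change if the labels of the SB431542 libraries are exchanged. None of the 28 tested imprinted genes was called by limma (0 at an unadjusted p under 0.05), where 0.109% of all genes were called. The largest difference in size was -0.31 ± 0.22 for Ascl2. Lefty1, a Nodal inhibitor gene that SMAD2 and SMAD3 activate, differed by 4.04 ± 0.24 in the same contrast, with 191 and 248 RPKM in KO and 296 and 373 in WT with activin A, and 17.4 and 30.6 in libraries labelled KO and 7.06 and 14.7 in those labelled WT with SB431542.

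Neighbours within a cluster were compared pair by pair. The share of all genes called was 35.5% in Pml KO, 67.7% with arsenite and 9.43% in Trim33 KO with activin A. In Pml KO, 5 of 18 tested pairs were both called in the same direction, 3 in opposite directions, 8 had 1 call and 2 had none. The opposite pairs were Grb10 with Ddc, and Ppp1r9a with Peg10 and with Sgce. Of the 10 pairs in that table whose usual copies differ 2 moved in the same direction and 3 in opposite ones, and of the 8 that share a copy 3 and 0 did. The pairs of Dlk1 with Meg3 and with Rian, 2 of the 5 in the same direction, rest on Dlk1, which passed the filter through the KO libraries alone. With arsenite 7 of 16 pairs moved in the same direction and 4 in opposite directions. Of the 9 whose usual copies differ these were 4 and 2, and of the 7 that share a copy 3 and 2 (Ascl2 with Cdkn1c and with Phlda2). Pairs with Ppp1r9a or Zrsr1 rest on calls lost under TMM and under quantile normalization. Those with Ascl2 or Ddc rest on calls lost under quantile normalization. In Trim33 KO with activin A, 4 of 17 pairs moved in the same direction and none in opposite ones by limma (7 had 1 call and 6 none): the 3 pairs among Meg3, Rian and Mirg, and Cdkn1c with Phlda2. Of the 17 pairs tested, 7 share a usual copy, these 4 among them. Meg3 and Mirg passed the filter through the libraries where they were high, so nothing is read from that count. Among the SB431542 libraries, fitted with the same estimate of spread, those 4 pairs also moved together, in the reverse direction as labelled. The filter covered all 8 libraries at once, and Meg3 and Mirg passed it through the high libraries of both treatments. Nothing is read from that count either. Genes of a cluster are neighbours and their pairs share genes, and pairs of genes outside the clusters were not counted, so these counts are descriptions.

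Genes around the clusters and other imprinted genes were described in the same way. In Pml KO, 21 of 91 tested genes within 500 kb of the clusters rose and 17 fell (41.8% called, against 35.5% of all genes). Among 23 other tested imprinted genes 9 rose and 5 fell (60.9% called), led by Zdbf2 (16.3 FPKM in KO and 5.63 in WT, 1.38 ± 0.08), Osbpl5 (1.13 ± 0.13), Blcap (0.53 ± 0.06) and Smoc1 (0.56 ± 0.08). With arsenite 34 of 95 flanking genes rose and 35 fell (72.6% called, against 67.7% of all genes), and 12 of 22 other imprinted genes rose and 6 fell (81.8%), among them Sfmbt2 (25.3 RPKM with arsenite and 7.31 in untreated cells, 1.66 ± 0.07) and Cobl, near Grb10 (8.15 and 48.8, -2.44 ± 0.05). In Trim33 KO with activin A, 4 of 91 flanking genes rose and 3 fell (7.69% called, against 9.43% of all genes). Of 22 other imprinted genes the 4 called (18.2%) all rose: Smoc1 (12.8 RPKM in KO and 5.81 in WT), Gab1 (84 and 42.2), Sfmbt2 (8.18 and 4.34) and Dio3, at the far end of the Dlk1 cluster (2.01 and 0.463). Near Impact, which was not called there, Lama3 (5.98 RPKM in KO and 0.753 in WT) and Ttc39c (4.39 in KO and 0.56 in WT) rose. Both averaged above 1 RPKM only in groups where Trim33 was low, and the filter thus favoured a rise. The shares of flanking genes called lie near those of all genes, so they are no result about the clusters.

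A list of 20 factors holds those that keep, write or remove DNA methylation or repressive marks. Tet1, Tet2 and Tet3 in it encode enzymes that oxidise methylated DNA, so its counts mix opposite functions. In Pml KO, 9 of the 20 factors fell and 1 rose (50% called, against 35.5% of all genes). They included Uhrf1, which guides maintenance methylation (111 FPKM in KO and 164 in WT, -0.56 ± 0.05), the maintenance methyltransferase gene Dnmt1 (64.8 and 81.7, -0.33 ± 0.06), Zfp57 (182 and 215, -0.24 ± 0.05) and Ezh2 (65.1 and 77.6, -0.25 ± 0.05), and the 1 that rose was Dppa3 (53.3 and 44, 0.27 ± 0.06), named after its value was seen. With arsenite 11 fell and 4 rose, a share of 75% near the 67.7% of all genes: Tet2 (5.04 RPKM with arsenite and 13.6 in untreated cells, -1.28 ± 0.07), Hells (85 and 123, -0.53 ± 0.04) and Trim28 (553 and 783, -0.50 ± 0.04) were lower, and Ehmt2 was higher (61.6 and 39, 0.64 ± 0.04). In Trim33 KO with activin A, Dnmt3b fell (81.2 RPKM in KO and 149 in WT, -0.87 ± 0.12) and Dppa3 rose (117 in KO and 62.5 in WT, 0.89 ± 0.20), and the other 18 were not called, a share of 10% called that is near the 9.43% of all genes.

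The 7 genes that passed the filter in no table stayed under 1 in every library. Magel2, a MAGE-family gene next to Ndn, reached 0.997 FPKM in Pml KO (0.829 and 0.997, against 0.52 and 0.461 in WT). Airn, the noncoding RNA that silences Igf2r, was at 0.793 and 0.452 FPKM in Pml KO and at 0.0491 and 0 in WT, and did not exceed 0.336 RPKM elsewhere. Zim1, a zinc-finger gene next to Peg3, ranged from 0.0894 to 0.65 over all libraries, and Usp29, a ubiquitin protease gene whose start lies 147 bases from that of Peg3, from 0.0214 to 0.458. Asb4, an ankyrin-repeat gene near Peg10, stayed at or below 0.632, Kcnq1ot1, the noncoding RNA that silences the Cdkn1c region, at or below 0.163, and Rasgrf1, a Ras exchange factor gene, at or below 0.14. Kcnq1ot1 lies antisense within Kcnq1, and likewise Nespas with Gnas, Zrsr1 with Commd1 and Mest with Copg2 overlap at exons on opposite strands, so their reads may be shared if counting ignored strand.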

How the data were processed

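RNA-seq libraries of mouse ES cells were analysed from the tables that the authors deposited. The deposited Pml table holds FPKM values and the deposited arsenite table RPKM values, per the file headers. The unit of the deposited Trim33 table is not named in the file, and its values behave as RPKM. Libraries were made with a TruSeq RNA kit, per the labels' protocols. The submitters' processing notes list Bowtie2 2.3.3 with the mm10 build, featureCounts 2.0.1, DESeq2, SAMtools 1.9 and FastQC 0.11.5, with no role given; strand settings are not given in the sources used here. Reads with more than one possible origin, as for overlapping or near-identical genes, may have been split or dropped in that counting.

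Each table was fitted alone, with limma 3.58.1 (R 4.3.3) on log2(value + 1), for genes that reached 1 in at least 2 libraries, with a trended prior, two-sided tests and Benjamini-Hochberg adjustment over all genes kept. The 8 libraries of the Trim33 table shared 1 fit. From each table, 27 names that a spreadsheet had turned into dates were left out. In the RPKM tables, low values came out as whole reads (91.0 to 94.9% within 0.05 reads) once gene lengths from RefSeq were applied, which gave the depths stated; for the FPKM values 20.8 to 25.5% did, so its depth is unknown. At these depths a value near 0.1 RPKM stands for only a few reads per kilobase. The fit was tested on simulated data. Python 3.11.15, pandas 2.3.3 and numpy 2.4.6 were used for joins and matplotlib 3.10.9 for plots.

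All 36 imprinted genes are named. Of the lists of other imprinted genes and of imprint maintenance and DNA methylation factors, up to 4 called genes with the smallest p are named in a comparison. Of flanking genes a selection of up to 2 for a cluster with the smallest p is named. The genes and lists were chosen with earlier results of these data known. Alternatives were other pseudocounts (0.1 and 0.5), a filter at 2 or none, TMM and quantile rescaling, no trend, a replicate block, a fit of only the groups compared, and each library left out.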

Additional observations from a re-analysis of the deposited data

Results flagged for a closer look

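For 14 of the 28 tested imprinted genes the knockout effect, as labelled, differed between the activin A and the SB431542 libraries of the Trim33 table. It did so for 26.3% of all 11914 tested genes (limma interaction test, adjusted p under 0.05). The values are the log2 KO minus WT difference with activin A less that with SB431542. They were positive for H19 (3.47), Cdkn1c (2.73), Phlda2 (2.66), Igf2 (2.62), Ddc (2.55), Ascl2 (1.76) and Plagl1 (1.05). They were negative for Rian (-5.88), Mirg (-2.38), Meg3 (-2.01), Gnas (-1.68), Nnat (-1.50), Mcts2 (-0.91) and Mest (-0.68). Trim33 itself had a value of -5.23 in the same test, and it went against the genotype label in all 4 SB431542 libraries. Without 1 library at a time, the calls of Igf2, Mest and Plagl1 were each lost in 6 of 8 fits, that of Ascl2 in 4 and that of Mcts2 in 1. The call of Plagl1 was also lost with a replicate block, under TMM, under quantile normalization and with no filter (adjusted p = 0.0506, 0.054, 0.0527 and 0.0891), those of Igf2 and Ascl2 with no filter (0.0937 and 0.0584) and that of Mest with no trend (0.0505).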

How the results depend on the processing

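No imprinted gene that was called turned its direction under any alternative run. The numbers called higher and lower, 15 and 5 in Pml KO, 17 and 7 with arsenite, 3 and 5 in Trim33 KO with activin A, 5 and 3 in the SB431542 libraries as labelled, and 7 and 7 for the difference between them, stayed within 1.5 times except as follows. A filter at 2 gave 3 lower with activin A and 3 higher with SB431542. Without 1 library at a time the ranges were 14 to 15 higher and 4 to 5 lower in Pml KO, 13 to 17 and 6 to 8 with arsenite, 2 to 4 and 1 to 6 with activin A, 2 to 5 and 3 to 4 with SB431542, 4 to 10 and 5 to 8 for the difference, and 0 for the mean effect of activin A. In these fits a lone library is assumed to vary like the others. Some genes had no value without either library through which they passed the filter. These were Mest and Dlk1 in Pml KO, Plagl1 and Dlk1 with arsenite, and Dlk1 in the Trim33 table. A fit of only the 2 groups compared gave 5 lower with SB431542.

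The replicate numbers shared by groups were fitted as a replicate block, which gave 5 higher with activin A, in place of 3, and 5 lower with SB431542, in place of 3; H19 and Ascl2 were the added genes. Over all genes it called 1051 higher and 533 lower with activin A, against 787 and 336. Deviations of same-numbered libraries correlated at 0.02 in the Pml table, 0.19 with activin A and -0.14 with SB431542, at 0.6 between KO with activin A and WT with SB431542 as labelled, and at 0.37 between KO with SB431542 as labelled and WT with activin A; with 2 numbers a group this is only a hint. The crossed pairing of the SB431542 libraries, chosen after seeing the data, gave 5 higher and 4 lower imprinted genes. In the arsenite table the block was not run, since the untreated columns carry no number.

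Counts over all genes moved by over 1.5 times with no filter in Pml KO (1627 higher and 1325 lower, against 1931 and 2199), with no filter for SB431542 (233 and 642, against 359 and 780) and with only 2 groups fitted (1203 and 649 with activin A, 160 and 448 with SB431542). Under TMM they were 621 and 563 with activin A and 1556 and 1827 for the difference, against 1923 and 1206. Without KO replicate 1, KO replicate 2, WT replicate 1 or WT replicate 2 they were 170 and 48, 270 and 85, 219 and 45, and 146 and 39 with activin A, and without KO replicate 2, WT replicate 1 or WT replicate 2 as labelled 192 and 481, 78 and 216, and 149 and 365 with SB431542. Leaving out a library of the other treatment moved them through the shared spread, to 1013 and 533 or 527 with activin A (without KO with SB431542 as labelled) and to 225 and 546 or 224 and 547 with SB431542 (without WT with activin A). For the difference they were 1261 and 656 or 1412 and 774 without a KO library with activin A, 1342 and 709 or 1221 and 632 without a WT one, and 1449 and 789 without WT replicate 1 with SB431542 as labelled. Values near 0.1 RPKM, such as those of Meg3 and Mirg in the libraries of the Trim33 table where they were low, rest on a few reads per kilobase. The causes were not tested.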

Other observations

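All 3 tested genes that flank Impact on chromosome 18 rose in Trim33 KO with activin A (log2 fold changes of 0.84 to 1.99). Of all tested genes, 6.61% were called higher there, and Impact itself was at 0.09 ± 0.24. In the SB431542 libraries, as labelled, all 3 were lower (-2.13 to -0.72) and Impact was at -0.07 ± 0.24. There 6.55% of all tested genes were called lower. Lama3 and Ttc39c averaged above 1 RPKM only in the groups where Trim33 was low. The filter over all 8 libraries thus favoured these directions, and nothing is read from either count.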
